A study of Cricetiscus sungorus with 16 samples.

Results

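The comparison described here set ovaries of Siberian hamsters reared in short days against ovaries reared in long days, at 3 wk of age. It took in 8 of the 16 arrays of the study, chosen by their labels: 4 females in SD (10 h of light per day) and 4 females in LD (16 h of light per day). According to the study's design, the animals were gestated in the day length in which they were then kept, so each group differed in light from before birth. The other 8 arrays, of 4 SD and 4 LD females at 8 wk, were used for the same contrast at the later age and for the estimate of the spread. For the SD group at 8 wk the labels disagreed, since the title gave 16 h and the description gave 10 h, and the description was followed. Each array held Cy3-labelled RNA from both ovaries of 1 hamster, hybridised to a mouse array whose probes were designed on another rodent genus. How well each mouse probe matched its hamster transcript was not tested. Because whole ovaries were used, fewer cells of a type and less RNA per cell cannot be told apart.

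Siberian hamsters are seasonal breeders that read day length through the nightly duration of melatonin release. Long days permit the pituitary to release the gonadotropins that drive follicles to grow, make oestrogen and ovulate, and short days hold back puberty. Before the first ovulation the ovary holds growing follicles and no corpora lutea.

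A level is given below as log2 intensity minus its array's 75th percentile, so that a difference of 1 is 2-fold. The files name each probe by a transcript identifier, most often of mouse RefSeq (68.1% of those tested), and do not pair it with a gene symbol. Transcripts are named by that identifier, at most 2 in each direction of a comparison, and the gene lists and ovarian cell type markers drawn up for this tissue could not be matched, so the labelled tissue was not checked against them. The array held 41174 probes for 33272 identifiers, of which 20143 passed the filter on dim probes and were tested. For 19886 of them every array of the LD or of the SD group at 3 wk was well above background, and 19037 were measured on all 8 arrays at that age.

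Arrays of 1 slide resembled each other. Each of the 4 slides carried 1 hamster of every group, in the same place on each slide, so that place and group cannot be told apart. At 3 wk between 60.1% and 71.8% of probes were well above background on an LD array and between 60.2% and 69.2% on an SD array. The intensity at the 75th percentile lay between 465 and 940 on the LD arrays and between 332 and 1007 on the SD arrays, with slide 1 lowest in each group. Slide 1 also lost the most outlier spots, 2.95% on its LD array and 2.52% on its SD array, against 0.178% to 0.477% on the other six arrays at 3 wk. No spot was saturated.

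At 3 wk no transcript differed between SD and LD past the threshold. In the limma fit with slide as a block, 0 of 20143 identifiers (0%) had a Benjamini-Hochberg adjusted p under 0.05, and the lowest adjusted p was 0.362. At an unadjusted p under 0.05 there were 1262 (6.27%). The median size of the difference was 0.12 log2, 90% of identifiers differed by less than 0.35 and 99% by less than 0.80. The largest excess in SD was 3.33 and the largest in LD was -2.60, and neither passed the threshold. Nor did any probe switch between background and signal: 0 of 41174 probes (0%) were well above background on all 4 SD arrays and on 0 LD arrays, and 0 (0%) the other way round.

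The same contrast at 8 wk gave 515 calls (2.56%), with 359 identifiers higher and 156 lower in SD. At an unadjusted p under 0.05 there were 2804 (13.9%). The median SE of 0.147 at each age is shared by construction, since 1 fit over all 16 arrays pools the spread, and it does not compare the precision of the ages. Differences over 2-fold numbered 100 at 3 wk (0.496%) and 354 at 8 wk (1.76%), and those over 4-fold numbered 8 and 69. At 8 wk 4 probes (0.00971%) were well above background on all 4 LD arrays and on 0 SD arrays, and 0 (0%) the other way round. The count at 8 wk depended on single arrays: it was 240 without the LD array of slide 2, and 313, 237 and 276 without the SD arrays of slides 1, 2 and 3.

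**Figure D1:**
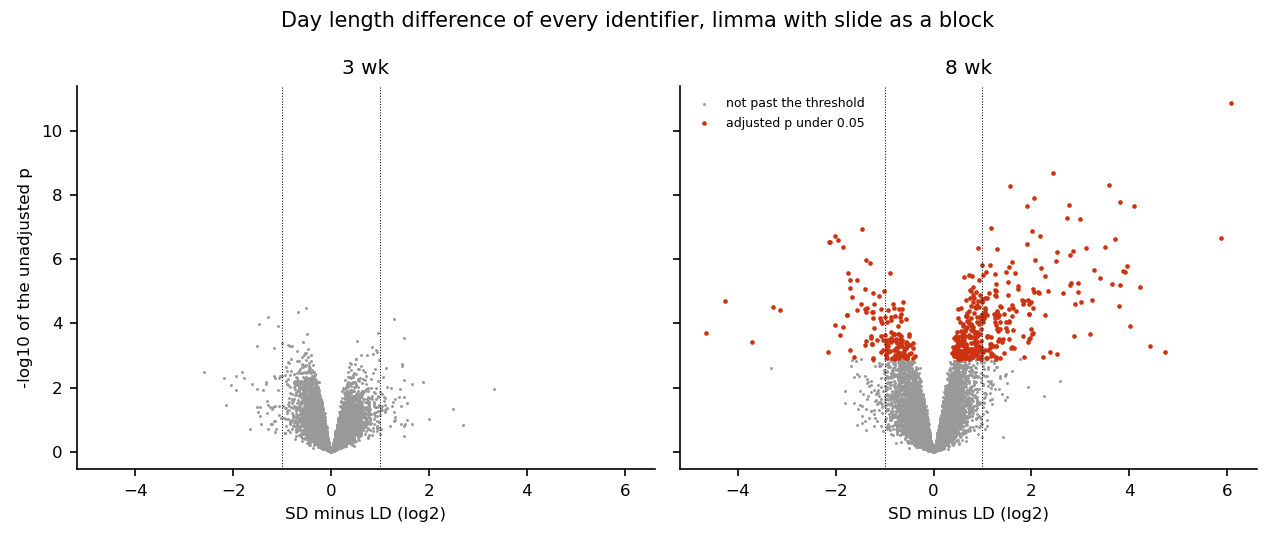
Each point is 1 of 20143 transcript identifiers, with its SD minus LD difference (log2) on the horizontal axis and the -log10 of its unadjusted limma p on the vertical axis, at 3 wk (left) and 8 wk (right) on shared axes. Red points have an adjusted p under 0.05: there are 0 at 3 wk and 515 at 8 wk, and dotted lines mark a 2-fold difference.

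For each identifier taken alone, the 3-wk result can be stated as a bound on the size of the measured difference. The intervals make no allowance for the number of identifiers. The 95% interval of the difference lay wholly within 2-fold in either direction for 18694 identifiers (92.8%) and within 1.5-fold for 70.8%. The half-width of the interval had a median of 0.32 log2, with quartiles of 0.26 and 0.43. For the other 1449 identifiers the interval reached past 2-fold in at least 1 direction. Precision was better for brighter identifiers. Among the 6715 dimmest identifiers the median SE was 0.180 and 87.4% of intervals lay within 2-fold, among the 6714 of middle level 0.140 and 94.6%, and among the 6714 brightest 0.129 and 96.5%.

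Single slides looked noisier than the fit over all of them. The SD minus LD difference of the pair on slide 1 exceeded 2-fold for 6.01% of identifiers, on slide 2 for 3.03%, on slide 3 for 2.31% and on slide 4 for 1.90%. Its median size was 0.29 on slide 1, 0.16 on slide 2, 0.19 on slide 3 and 0.15 on slide 4. SD lay above LD on all 4 slides for 898 of 19037 identifiers (4.72%) and below LD on all 4 for 2889 (15.2%). At 8 wk these were 1795 (9.16%) and 1960 (10%) of 19595.

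The groups rarely separated. All 4 SD hamsters lay above all 4 LD hamsters at 3 wk for 59 of 19037 identifiers (0.31%), and below all of them for 222 (1.17%). At 8 wk the counts were 415 (2.12%) and 362 (1.85%) of 19595. These counts compare hamsters across slides with the slide effect left in, so they can miss a difference that is alike on every slide. The surplus of lower values in SD at 3 wk depended on the scaling of the arrays. With each array centred on its median in place of its 75th percentile, 102 identifiers separated upward and 100 downward, and with quantile normalization 98 and 206.

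The same held for the identifiers at an unadjusted p under 0.05, among which SD was higher for 367 and lower for 895 (29.1% higher). With the median as the centre 728 of 1103 were higher (66.0%), and with quantile normalization 512 of 1163. The median difference of all identifiers was -0.05 with the 75th percentile and 0.01 with the median, so no overall direction of the day length difference at 3 wk was settled. The count itself was 837 without the SD array of slide 3.

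The 100 identifiers that differed by over 2-fold at 3 wk were split into 52 higher and 48 lower in SD. Their SE was larger, with a median of 0.512 for the higher and 0.541 for the lower ones, against 0.147 over all identifiers. Of the 52, 7 separated the groups (0.31% of all identifiers did so upward) and 18 were higher on all 4 slides (4.72% of all). Of the 48, 6 separated the groups (1.17% of all did so downward) and 21 were lower on all 4 slides (15.2% of all). These shares use the contrast by which the 100 were picked and support nothing. Of the 52, 27 were well above background on all 8 arrays, and of the 48, 36, against 18743 of the 20143 tested. By signal, 56 of the 100 were among the dimmest identifiers, 26 of middle level and 18 among the brightest.

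The transcripts named for 3 wk are the highest and lowest by moderated t among those measured on all 8 arrays with 1 direction on all 4 slides. That direction is part of the choice, and groups that do not overlap are favoured by it, so neither supports anything. Their adjusted p-values, in limma over all 20143 identifiers, lay between 0.362 and 0.618.

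NM_177204 had the highest t of the named rule. Another identifier, outside that rule, was higher in SD by 1.28 with an SE of 0.215 (limma adjusted p = 0.362). Its unadjusted p of 7.2e-05 was below the 0.000192 of NM_177204. With slide as a random replicate block it was the only call (limma adjusted p = 0.0306). The values that follow are of NM_177204. Its levels in the LD hamsters of slides 1 to 4 were -0.72, -1.07, -1.18 and -1.29, and in the SD hamsters -0.08, -0.15, 0.40 and -0.63. The highest LD hamster lay just under the lowest SD hamster, so the groups did not overlap. The means were -1.07 ± 0.25 in LD and -0.12 ± 0.43 in short days (± standard deviation, n = 4), a difference of 0.95 with an SE of 0.184 and a 95% interval of 0.55 to 1.35 (limma adjusted p = 0.534). At 8 wk the difference was -0.32 (adjusted p = 0.498), and that between the ages was -1.27 (adjusted p = 0.0975).

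BC053106 came next. Its levels at 3 wk were -4.20, -5.74, -5.92 and -5.51 in LD and -2.86, -3.70, -4.11 and -4.77 in SD on slides 1 to 4. All 4 SD arrays but only 2 LD arrays measured the probe well above background, and the LD hamster of slide 1 overlapped the SD range. The difference was 1.48 with an SE of 0.300 (limma adjusted p = 0.618), and it was 0.25 after normexp background correction with an offset of 50. At 8 wk it was 0.21 (adjusted p = 0.849).

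ENSMUST00000098259 had the lowest t of the named rule. In LD it was measured at -0.45, -0.83, -0.66 and -1.10 and in SD at -0.99, -1.44, -1.17 and -1.51, on slides 1 to 4. Each pair on a slide differed by a like amount, from -0.41 to -0.61, although the groups overlapped. The difference was -0.52 with an SE of 0.0835 (interval -0.70 to -0.34, limma adjusted p = 0.362). At 8 wk the difference was -0.02 (adjusted p = 0.956), with an interval of -0.20 to 0.16, and the difference between the ages was 0.50 (adjusted p = 0.168).

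NM_173379 was lower in SD at both ages, with a call at 8 wk. In the 3-wk LD hamsters it stood at -0.36, -0.28, -0.18 and -0.24, and in the SD hamsters at -0.59, -1.10, -1.07 and -0.998. The LD hamsters were close together and all 4 lay above the SD hamsters, of which that of slide 1 was nearest. The difference was -0.67 with an SE of 0.111 (interval -0.91 to -0.43, limma adjusted p = 0.362), a level 1.59-fold lower. Without the LD hamster of slide 1 it was -0.79, with a limma adjusted p of 0.0359, the lowest of the 35 alternatives run. Leaving out any other single array at 3 wk gave -0.62 to -0.75, with limma adjusted p-values of 0.396 to 0.982. At 8 wk the levels were -0.39, -0.56, -0.57 and -0.76 in LD and -1.17, -1.54, -1.51 and -1.59 in SD. The 8-wk difference was -0.88 with an SE of 0.111 (adjusted p = 0.00114), and that between the ages was -0.21 (adjusted p = 0.718).

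**Figure D2:**
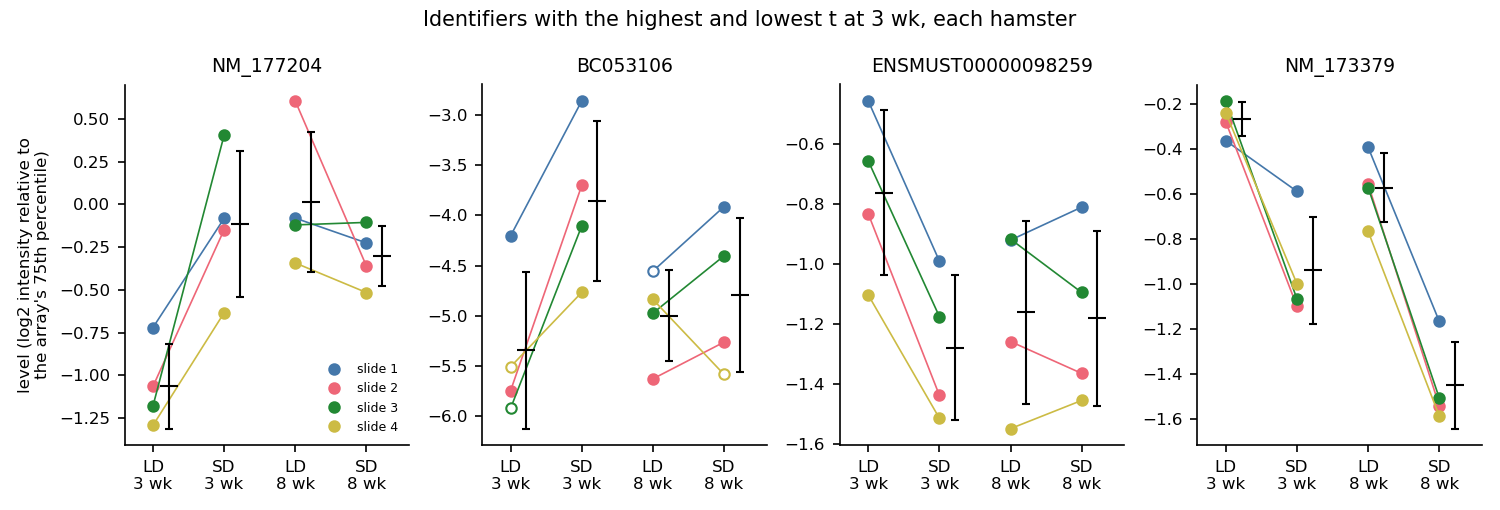
Each panel shows 1 identifier, with its level (log2 intensity relative to the array's 75th percentile) in every hamster of the 4 groups. Lines join the LD and SD hamsters of 1 slide, open circles are probes not well above background, and bars are the mean ± standard deviation of each group (n = 4). At 3 wk NM_177204 and NM_173379 separate LD from SD, but neither passed the threshold (limma adjusted p = 0.534 and 0.362). They were picked by their t at 3 wk, so the separation supports nothing. Of the transcripts shown, only NM_173379 is called at 8 wk.

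The identifiers called at 8 wk were then read at 3 wk, where other hamsters were measured. For the 156 that were lower in SD at 8 wk (median -0.86), the median difference at 3 wk was -0.29, with quartiles of -0.53 and -0.12. Of these, 139 were lower in SD at 3 wk (89.1%), against 62.9% of all identifiers. At an unadjusted p under 0.05 there were 57 (36.5%), all 57 of them lower, against 4.44% of all identifiers. None passed the adjusted threshold (0 of 156). The medians on slides 1 to 4 were -0.23, -0.43, -0.39 and -0.13, against -0.07, -0.04, -0.08 and -0.03 for all identifiers.

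For the 359 that were higher in SD at 8 wk (median 0.95), the median difference at 3 wk was 0.07, with quartiles of -0.04 and 0.24. There 241 were higher in SD at 3 wk (67.1%), against 37.1% of all identifiers. At an unadjusted p under 0.05, 23 were higher at 3 wk (6.41%), against 1.82% of all identifiers, and 6 were lower. By slide the medians were 0.02, -0.07, 0.15 and 0.13, against -0.07, -0.04, -0.08 and -0.03 for all identifiers. Only on slide 2 did the median of this set lie below that of all identifiers.

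Both sets were chosen for their difference at 8 wk, so a smaller size at 3 wk is no finding by itself, and the test between the ages is given below. The 3-wk interval lay within 2-fold for 305 of the 359 (85.0%) and 117 of the 156 (75%).

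Read from the other side, 57 of the 895 identifiers that were lower at 3 wk at an unadjusted p under 0.05 were called lower at 8 wk (6.37%), and 6 were called higher. Over all identifiers 0.774% were called lower at 8 wk. Of the 367 that were higher at 3 wk, 23 were called higher at 8 wk (6.27%) and 0 were called lower, and over all identifiers 1.78% were called higher. The 2 ages share no array, but in this fit they share the estimate of each identifier's spread and the slides.

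With each age fitted on its own 8 arrays, so that the spread was not shared, 57 identifiers were lower in SD at 8 wk among 17928 fitted at both ages. Of these, 24 were also lower at 3 wk at an unadjusted p under 0.05 (42.1%), against 4.72% of all, and they made up 2.84% of the 846 that were lower at 3 wk. Of the 158 that were higher at 8 wk, 19 were also higher at 3 wk, against 2.73% of all. With the median as the centre of each array, 42 of the 128 lower at 8 wk were also lower at 3 wk (32.8%, against 1.86% of all), so that share did not rest on the 75th percentile. Without slide 2 there were 14 of 26 (53.8%, against 3.78% of all), and without slide 3 16 of 55 (29.1%, against 2.03%). LD hamsters held places 1 and 3 and SD hamsters places 2 and 4 on every slide. Place and day length therefore cannot be told apart in this overlap at either age, and the part of place was not tested.

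**Figure D3:**
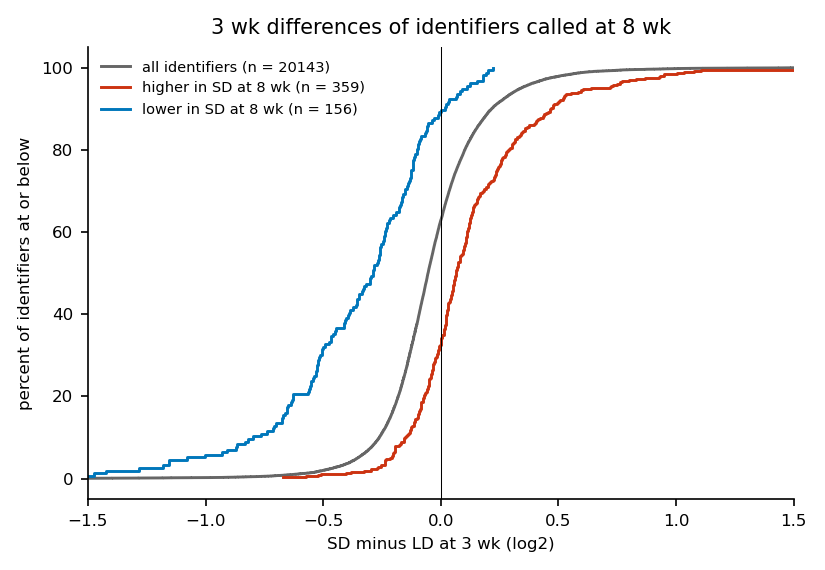
Cumulative share of identifiers (percent, vertical axis) at or below a given SD minus LD difference at 3 wk (log2, horizontal axis, drawn from -1.5 to 1.5), for all 20143 identifiers, the 359 called higher and the 156 called lower in SD at 8 wk. The lower set lies to the left of all identifiers (median -0.29 against -0.05) and the higher set to the right (median 0.07).

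Whether the day length difference itself changed with age was tested directly. The difference at 8 wk minus that at 3 wk passed the threshold for 35 of 20143 identifiers (0.174%), 33 more positive and 2 more negative at 8 wk. All 35 were also called at 8 wk. At 3 wk these 35 had a median difference of -0.01, and 5 had an unadjusted p under 0.05 (14.3%, against 6.27% of all identifiers). The test that picked the 35 uses the 3-wk values, so that share supports nothing. The other 480 identifiers called at 8 wk were not shown to differ between the ages. The count of 35 moved with single arrays, from 15 without the LD array of slide 4 at 3 wk to 90 without the SD array of slide 4 at 8 wk.

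NM_001033364 had the largest difference at 8 wk. In LD at 3 wk its levels were -2.77, -2.57, -3.01 and -3.14, and in SD -2.64, -3.29, -2.83 and -3.12, which interleave. At 8 wk it stood at -2.74, -3.06, -2.93 and -3.34 in LD and at 3.26, 3.45, 3.83 and 1.67 in SD. The difference at 3 wk was -0.09, with an interval of -0.69 to 0.50, and at 8 wk 6.07 with an SE of 0.275 (limma adjusted p = 2.7e-07). The difference between the ages was 6.17 (adjusted p = 1.7e-05).

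NM_013547 was also far higher in SD at 8 wk, and its 3-wk levels were uneven. In LD at 3 wk they were -3.67, -3.61, -3.79 and -4.83, and in SD -3.65, -4.05, -1.67 and -2.74. The SD hamsters of slides 3 and 4 lay above all LD hamsters and those of slides 1 and 2 did not. The 3-wk difference was 0.95, with an interval of -0.11 to 2.01. At 8 wk the LD levels were -1.72, -1.59, -2.43 and -1.25 and the SD levels 4.09, 4.42 and 3.96 on slides 2 to 4. The spot of slide 1 was left out as an outlier, so the 8-wk difference of 5.87 (limma adjusted p = 0.000258) rests on 3 SD arrays.

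NM_153539 was lower in SD at 8 wk, and at 3 wk 3 of its 4 slides had the same direction. Its 3-wk levels were -0.66, -2.37, -2.38 and -3.29 in LD and -2.11, -5.04, -4.78 and -2.46 in SD. SD minus LD was -1.45, -2.67 and -2.40 on slides 1 to 3, and 0.83 on slide 4. The 3-wk difference was -1.42, with a wide interval of -3.38 to 0.53. At 8 wk it was -4.65 (limma adjusted p = 0.0161), and the SD hamster of slide 4 (-2.76) was the only one of its group in which the probe was well above background. The size of that difference therefore rests on 3 SD arrays that were not well above background, and is uncertain. The difference between the ages was not past the threshold (adjusted p = 0.529).

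NM_183191 showed a lower level in all 4 SD hamsters at 3 wk. These stood at -3.78, -4.73, -3.93 and -4.58, against -3.27, -3.13, -3.24 and -3.66 in LD, so the groups did not overlap. The 3-wk difference was -0.93, with a wide interval of -2.62 to 0.75. That interval uses the spread of all 16 hamsters, and the LD hamsters at 8 wk stood apart from each other at -1.01, -1.66, -4.99 and -4.39. At 8 wk the probe was not well above background on any SD array. Over the groups SD was there at least 4.60-fold lower than LD, a bound taken against the lowest signal well above background on each array. On slides 1 to 4 the measured differences were -5.78, -6.81, -0.77 and -1.44, so the bound did not hold on slides 3 and 4. The limma adjusted p of 0.0242 belongs to the measured difference of -3.70, not to the bound. The measured means were -3.01 in LD and -6.72 in SD.

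**Figure D4:**
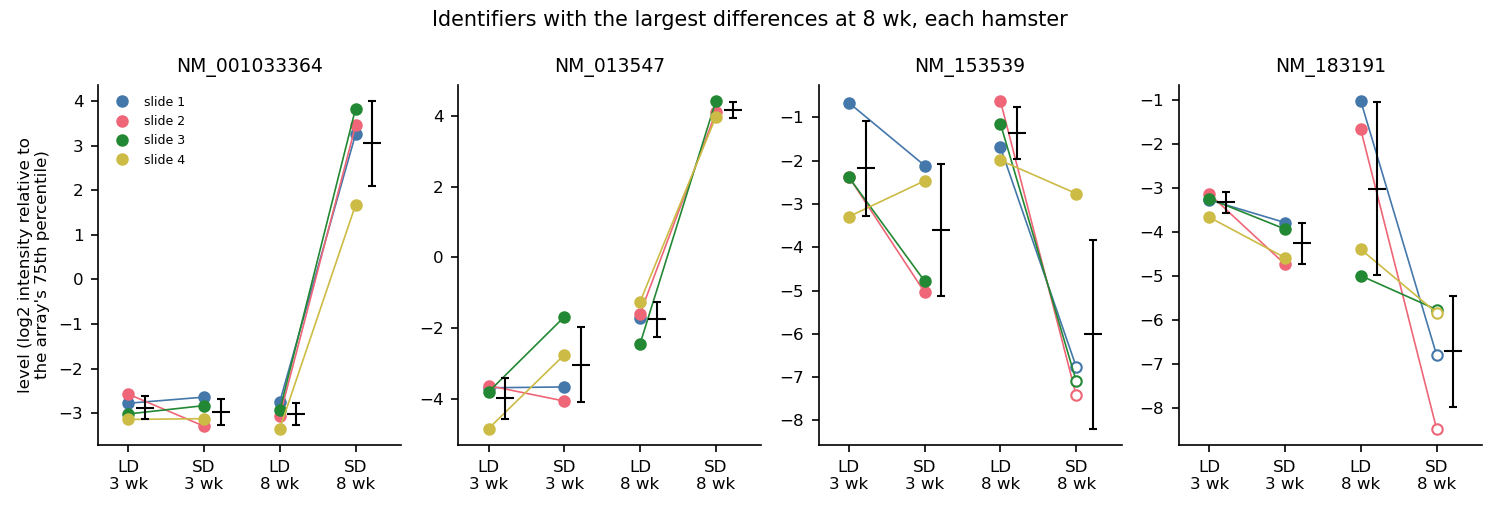
Level (log2 intensity relative to the array's 75th percentile) of 4 identifiers with the largest differences at 8 wk, in every hamster. Lines, open circles and bars are drawn as in the plot of the transcripts named for 3 wk. NM_001033364 and NM_013547 stand high only in SD at 8 wk (the bar of NM_013547 there is over 3 hamsters). At 3 wk NM_153539 is lower in SD than in LD on 3 of 4 slides and NM_183191 on all 4. Neither 3-wk difference passed the threshold (limma adjusted p = 0.771 and 0.804), and both are called lower in SD at 8 wk.

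The 2 identifiers with a more negative difference at 8 wk had none past the threshold at 3 wk. NM_010200 stood at 1.96, 1.45, 0.42 and 0.67 in LD at 3 wk and at 1.99, 1.08, 0.89 and 1.42 in SD, with a difference of 0.22 (interval -0.21 to 0.65). At 8 wk all 4 LD hamsters (3.02, 2.61, 1.69 and 2.08) lay above all 4 SD hamsters (0.76, 0.30, 0.35 and 0.59), a difference of -1.85 (limma adjusted p = 0.000337). The LD mean was 1.13 at 3 wk and 2.35 at 8 wk, and the SD mean 1.35 and 0.50.

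ENSMUST00000088612 had the same shape. At 3 wk its levels were 0.64, 0.62, 0.11 and 0.11 in LD and 0.58, 0.16, 0.23 and 0.45 in SD, a difference of -0.01 (interval -0.31 to 0.29). At 8 wk they were 1.68, 1.47, 1.13 and 1.23 in LD and -0.12, -0.18, 0.06 and -0.10 in SD, a difference of -1.46 (limma adjusted p = 0.00018). The differences between the ages were -2.07 for NM_010200 and -1.44 for ENSMUST00000088612 (adjusted p = 0.0106 for each).

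Other probes of an identifier gave a check on direction that the choice of the brightest probe did not use. They were measured on the same arrays and share the scaling of each array, and the check was not run under another scaling. Over all identifiers with another probe past the filter, 2824 of 4474 such probes had the same direction at 3 wk (63.1%). For identifiers at an unadjusted p under 0.05 this was 196 of 245 (80%), and for those at an unadjusted p of 0.5 or more 1207 of 2073 (58.2%). For the identifiers called at 8 wk it was 125 of 145 (86.2%) at that age.

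The spread between hamsters at 3 wk was nearly the same in both groups as measured, with a median standard deviation of 0.31 in LD and 0.29 in short days, and differed once the slide effect was removed. With it removed, the residual spread within a group had a median of 0.18 in LD and 0.13 in short days, over 18648 identifiers. This residual spread was larger in short days for 31.8% of identifiers. Without slide 1 the medians were 0.12 and 0.10, and it was larger in short days for 42.2%. It was scaled like a standard deviation, but the fit also takes the slide effect from these arrays. The residual values therefore run low beside the standard deviations as measured. The LD array of slide 1 deviated most from the fit of the 8 arrays at 3 wk, by a median of 0.19, against 0.07 to 0.12 for the other seven. No test was made of this difference in spread.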

How the data were processed

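Per the file headers, spots were read out by the authors with Agilent Feature Extraction (version 10.5.1.1). Its processed signal is a linear intensity, corrected for background, that the authors deposited without scaling arrays to each other. Other deposited columns used, per the file headers, are flags that mark outlier spots or a signal well above background. The series' value table, also deposited by the authors, gives these intensities again, with 4 cells off by over 0.5%, and was an alternative.

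Groups followed the labels' descriptions, and each array was taken as 1 hamster. Outlier spots were left out, log2 spots of a probe averaged and each array's 75th percentile over probes subtracted. That order of steps was settled after counts under 5 orders had been seen. Probes well above background on all 4 arrays of a group, and measured on at least 12 of 16 arrays and on 2 of each group and slide, were kept, and the brightest stood for an identifier. limma 3.58.1 in R 4.3.3 (lmFit, eBayes with an intensity trend) was fitted over 16 arrays with 4 groups and slide as a fixed block, with Benjamini-Hochberg adjustment and a threshold of 0.05. The fit was run on simulated data that followed its own model, with independent normal noise. How it fares with outlying arrays was not tested. The labels number no replicates, so the slide's number served. Deviations from the group means of arrays on 1 slide correlated (median 0.451, lowest 0.224 of 24 pairs).

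Transcripts were named by moderated t at 3 wk, among those measured on 8 arrays with 1 direction on 4 slides, and by size at 8 wk and between ages. The rule also asked for gene symbols, more transcripts and gene lists, which needed a table of names not used here. The comparison, rules and lists were chosen with earlier results of these data known.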

Additional observations from a re-analysis of the deposited data

Results flagged for a closer look

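Chance alone flags about 1 in 20 groups as holding an array far from the others, and 39 groups of the 10 named transcripts were examined. NM_013547 was flagged in LD at 3 wk because the hamster of slide 4 (-4.83) lay far below the next lowest (-3.79). NM_153539 was flagged in SD at 8 wk because the hamster of slide 4 (-2.76) lay far above the next highest (-6.76), whose probe was not well above background.

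Another 4 results were flagged because the day length difference itself differed between the ages in the limma fit. The 8-wk difference minus the 3-wk difference was 6.17 for NM_001033364, 4.92 for NM_013547 (adjusted p = 0.0227), -2.07 for NM_010200 and -1.44 for ENSMUST00000088612.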

How the results depend on the processing

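Of the counts and named 3-wk differences, none changed direction under the alternatives run, apart from the split into higher and lower identifiers given above, which turned with the median as the centre. The 3-wk count of calls was 0 in the main fit and under all settings run except slide as a random replicate block (1), slides 3 and 4 alone with the slide as a replicate block (2, at -2.93 and -3.58, whose adjusted p was 0.747 over all slides), and leaving out 1 array, where it ranged from 0 to 2 (2 without the LD hamster of slide 1, 1 without that of slide 2). The 3-wk count at an unadjusted p under 0.05 (1262) was 330 with no replicate block, 359 with no replicate block on the 8 arrays alone, 809 with array weights, 515 on slides 1 and 2 alone, 631 without slide 3 and 837 to 1873 without 1 array. The 8-wk calls (515) were 193 with no replicate block, 232 with the replicate block and 83 without it on the 8 arrays alone, 277 with array weights, 316, 132 and 232 without slides 1, 2 and 3, and 237 to 621 without 1 array. The calls between ages (35) were 12 with no replicate block, 86 with a random one, 9 with array weights, 7, 5, 13 and 13 without slides 1 to 4, and 15 to 90 without 1 array. The share of intervals within 2-fold (92.8%) ranged from 78.8% with no filter on dim probes to 97.8% with normexp. The identifiers lower in SD at both ages (57) were 18 with no replicate block, and those higher at both ages (23) were 8, and 10 without slide 3. Causes were not tested. With other orders of the normalization steps, chosen after seeing the data, the 8-wk calls were 504 to 553, those between ages 29 to 35 and those at 3 wk 0. The normexp setting used median signals and, also after seeing the data, left out spots with a local background over 10 times the array's median (at most 14 on an array), since they kept it from converging. The splits of slides, the filter on 3-wk groups and the alternatives on the overlap between ages were also chosen after seeing the data. Of the named 3-wk transcripts, BC053106 could not be fitted with only probes well above background on 16 arrays. Medians of gene lists were not run, since no list could be matched. Low signal limits the 6715 dimmest identifiers most.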
